A study of Mus musculus with 8 samples.

Results

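The genes described here are 39 complement, clotting and fibrinolysis genes that hepatocytes express, with serpins left out, picked by symbol from a liver count table of 25239 genes. All 39 were in the table and all 39 passed the filter on low counts, which kept 14861 genes. RNA was taken from whole livers of adult males, as 4 control and 4 knockout libraries. The controls were Zfp36l1 fl/fl (the labels also call them WT), with loxP sites on both sides of part of the gene, and the knockouts were Zfp36l1 fl/fl Alb-Cre+, with the same alleles plus a Cre recombinase driven by the albumin promoter, which is used to delete genes in hepatocytes. Which cells of these livers kept Zfp36l1 was not tested. Only the knockouts are labelled with Cre, so effects of the recombinase and of the deletion cannot be told apart. The labels give no treatment and do not say whether libraries of a group come from separate animals, so p-values reflect only the spread among these libraries, which may be technical. Zfp36l1 encodes an RNA-binding protein that recognises AU-rich elements in the 3′ ends of mRNAs and promotes their decay.

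Complement is a cascade of plasma proteases and pore-forming proteins. The classical and lectin arms start when C1 or mannose-binding lectins recognise a surface, all arms meet at the cleavage of C3, and the terminal components build a pore in the target membrane. Coagulation is a parallel cascade in which thrombin, the product of F2, turns fibrinogen into fibrin, and plasmin, the product of Plg, dissolves the clot. The liver is the main source of most of these proteins, and several of them, fibrinogen and C3 among them, are made in larger amounts in the acute phase response to inflammation.

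Zfp36l1 had 212 to 324 CPM (counts scaled to a common library total) in the control libraries and 57.9 to 76.9 CPM in the knockout libraries, 25.1% of the control mean. The log2 fold change, knockout over control, was −1.99 (SE 0.14) with an adjusted p of 0.000309 in edgeR. Of 70 assignments of the libraries in a two-sided exact permutation test, none was more extreme, and p = 0.0286 is the smallest that test can give. Library totals were 104842873 to 140582588 counts, so 3 counts correspond to 0.0213 to 0.0286 CPM. Of the 10 hepatocyte markers, 9 were tested and 0 passed by edgeR (3 were higher and 0 lower at an unadjusted p under 0.05). Ass1, the other one, was listed at 0.0142 to 0.061 CPM, too low for a urea cycle gene in liver, so single genes of this table can be undercounted. The summed hepatocyte markers ran from 81358 to 89654 CPM in control and from 96021 to 106246 CPM in knockout libraries, and albumin held most of that sum. Of 6 cholangiocyte markers 1 fell, Sox9 (−1.18 on the log2 scale, adjusted p = 0.0242), and the other 5, Krt19, Krt7, Epcam, Spp1 and Cftr, had values from −0.25 to 0.41 and did not pass. The summed neutrophil markers were 1.51 to 6.68 CPM in control and 1.35 to 48.8 CPM in knockout libraries. What part other cells have in the values below was not tested. In whole liver RNA, fewer cells of a type and less RNA per cell cannot be told apart.

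No member passed the threshold, an adjusted p of 0.05 in edgeR's quasi-likelihood test, in either direction, while 5.39% of all tested genes did (3.51% higher and 1.88% lower). At an unadjusted p under 0.05, 9 of 39 members were lower (against 10.6% of all tested genes) and 1 was higher (against 10.8%). The log2 fold change was below 0 for 30 of the 39, or 76.9%, against 51.6% of all tested genes, and the median was −0.18 against −0.01. The changes were small: 34 of 39 were within 0.3 of 0 on the log2 scale, or 87.2% against 72.6% of all genes. The 95% confidence interval stayed within 1 on the log2 scale, a 2-fold change, for 36 of 39, the exceptions being C9, C6 and Cfd. A p above the threshold does not show equal levels, and the plot of fold changes gives the interval for each gene.

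**Figure D1:**
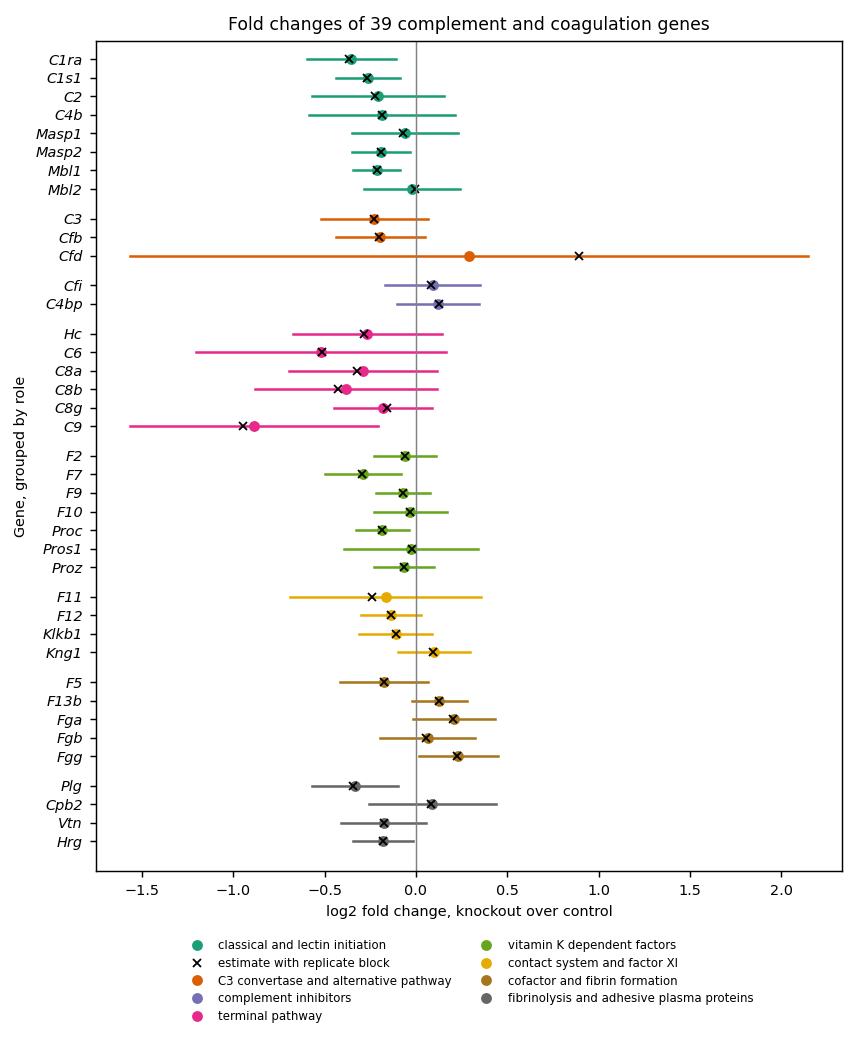
Log2 fold change of knockout over control for each of the 39 genes (y axis, grouped by role), with dots for the estimate, lines for its 95% confidence interval and crosses for the estimate with the replicate number as a block. Most dots lie left of 0, with C9 farthest left at −0.88, while Fga and Fgg sit right of 0 at 0.21 and 0.23.

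The sites that ZFP36L1 is known to bind were looked up in the members' 3′ UTRs, since they are the sequences the deleted protein reads. All 39 had an annotated 3′ UTR in GENCODE M21, with a median length of 347 bases against 1143 for 13695 tested genes. The AU-rich motif TATTTAT (in DNA letters, sense strand, longest annotated 3′ UTR) was in 3 of the 39 (7.69%) against 29.6% of all tested genes. Members' UTRs are short. Among UTRs of up to 200 bases it was in 0 of 12 members against 4.26% of all genes, from there to 400 bases in 2 of 10 against 8.16%, to 800 bases in 0 of 8 against 16.3%, and beyond that in 1 of 9 against 41.2%. The longer TTATTTATT was in none of the 39, against 7.91%. The sites are printed 5′ to 3′ with the motif in capitals.
Masp1, first site: aaaatagcgTATTTATccttatcag
Masp1, second site: aatttattcTATTTATcctccaaat
F13b: tactttcctTATTTATcaatcaaag
Fgg: tctttactcTATTTATtaatttttg
The site in Fgg is in 1 of 2 annotated coding transcripts with a 3′ UTR, and those in Masp1 in 1 of 3. The 3 genes had log2 fold changes of −0.06, 0.13 and 0.23, and none passed. C9, C6, C1ra, F7 and Plg hold no match. A match is a description of these letters only.

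Which single genes passed depended on the test and the scaling, as given further below, and on whether the libraries were paired. Libraries of the same number in both groups deviated together from their group means, so the replicate number was also fitted as a block. The labels do not state this pairing, which was taken from these same data. With that block 5 members were lower and 0 higher, against 2.52% and 4.39% of all tested genes. The 5 were C9, C6, C1ra, F7 and Plg. C9 then had a log2 fold change of −0.95 (SE 0.12, adjusted p = 0.00704). The values were −0.51 (SE 0.07, adjusted p = 0.00766) for C6, −0.37 (adjusted p = 0.0428) for C1ra, −0.30 (adjusted p = 0.0465) for F7 and −0.34 (adjusted p = 0.0475) for Plg. All 5 were lower in 4 of 4 same-numbered pairs, which is no separate support, since the fit that picked them used these pairs. Of the 39 members, 21 (53.8%) were lower in 4 of 4 pairs, against 17.7% of all tested genes. In the other direction, 6 members (15.4%, against 15.8%) were higher in 4 of 4 pairs.

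**Figure D2:**
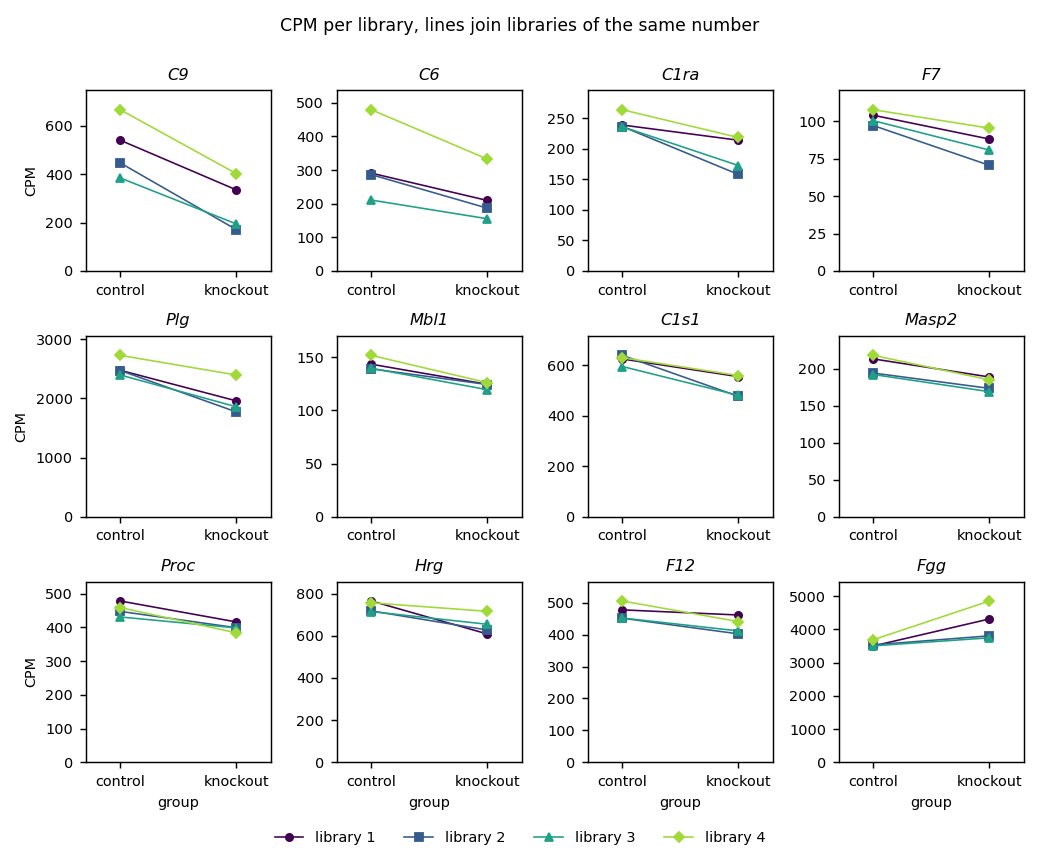
CPM (y axis, from 0) in control and knockout libraries for 12 members, with lines joining libraries that carry the same number. The lines for C9, C6, C1ra, F7 and Plg all slope down, and those for Fgg all slope up.

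The libraries numbered 4 stood apart for these genes in both groups. Control library 4 was the highest control library for 28 members (71.8%, against 24.6% of all tested genes) and knockout library 4 the highest knockout library for 32 (82.1%, against 26.8%), and both held for 23 members (59%) against 9.32% of all tested genes. Knockout library 2 or 3 was the lowest knockout library for 36 members (92.3%) against 46.7%. Acute phase genes marked the same libraries. Saa1, a serum amyloid gene, had 457 CPM in control library 4 and 278 CPM in knockout library 4, against 10.5 to 27 CPM in the other control and 7.79 to 14.1 CPM in the other knockout libraries. Library 4 was highest in both groups for 17 of 22 acute phase genes. What part this has in the levels of the members was not tested. With both libraries numbered 4 left out, a choice made after seeing the data, 1 member was lower (Plg, log2 fold change −0.39, adjusted p = 0.0397) and 0 were higher, against 0.66% and 2.32% of all genes. This fit had no block. C9 then had −0.97 (SE 0.27, adjusted p = 0.111) and C6 −0.51 (SE 0.15, adjusted p = 0.116). In the edgeR fit of all 8 libraries without the block, C9 had −0.88 (SE 0.30, adjusted p = 0.129) and C6 −0.52 (SE 0.30, adjusted p = 0.357).

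**Figure D3:**
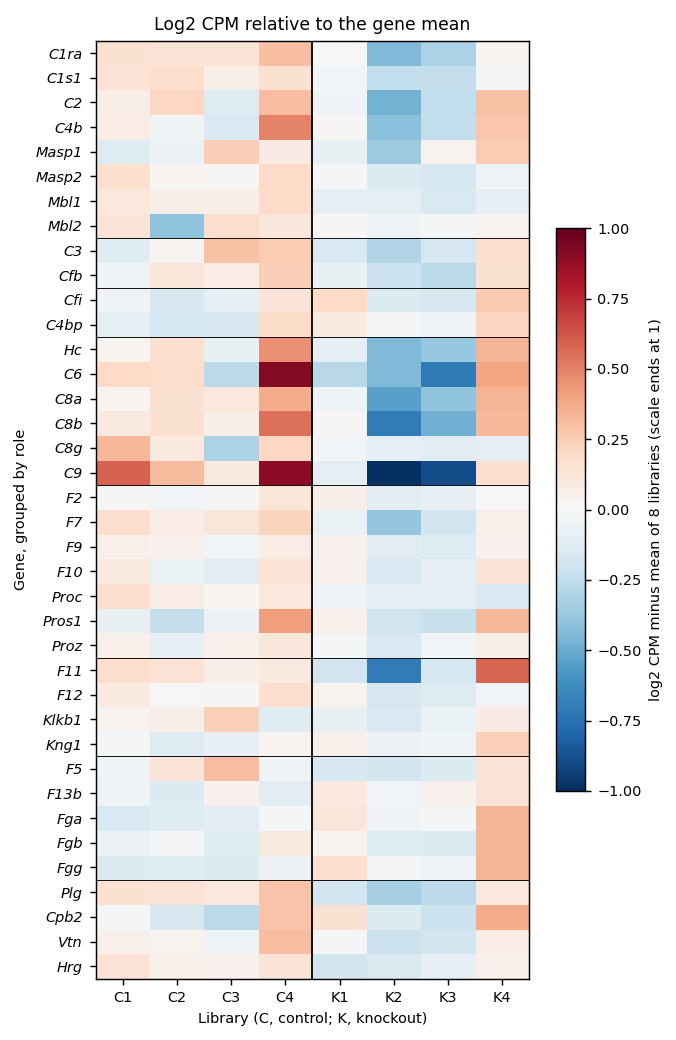
Log2 CPM of each gene minus its mean over the 8 libraries (colour, with values past 1 drawn in the end colour), for 38 members in rows by role and control (C1 to C4) and knockout (K1 to K4) libraries in columns; Cfd is left out for its low level. Columns C4 and K4 are mostly red, and K2 and K3 mostly blue.

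Levels spanned a wide range, compared here per gene length as RPKM (CPM per kilobase of the deposited length). Fgb, the fibrinogen beta chain gene, led in both groups, at 2306 ± 142 RPKM in control and 2412 ± 388 RPKM in knockout livers (mean ± SD, n = 4 per group here and below). C3 followed in control livers at 1991 ± 264 RPKM, ahead of Fgg at 1686 ± 42.5 and Fga at 1598 ± 66.9 RPKM. In knockout livers Fgg (1980.5 ± 245) and Fga (1848 ± 228) came before C3 (1699 ± 243), but these neighbours lie within their spread. The deposited length of Fgb, 1705 bases, is shorter than its 3′ UTR of 2262 bases in GENCODE M21, so its place depends on the annotation. In CPM, without the length, Fgb had 3932 ± 242 in control livers, below C3 at 10230 ± 1355. The lowest hepatocyte factor was Pros1, protein S, at 21.5 ± 4.48 and 21.1 ± 3.85 RPKM. Cfd was lower still, at 0.179 to 3.01 RPKM in control and 1.08 to 2.4 RPKM in knockout libraries. C9 went from place 18 of 39 to place 25. Together the 39 genes took between 4.59% and 5.27% of a control library and between 3.76% and 5.06% of a knockout library. These are shares of all counts, without the scaling used for CPM and RPKM. In scaled CPM their sum ran from 44467 to 51638 in control and from 39473 to 52645 in knockout libraries.

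**Figure D4:**
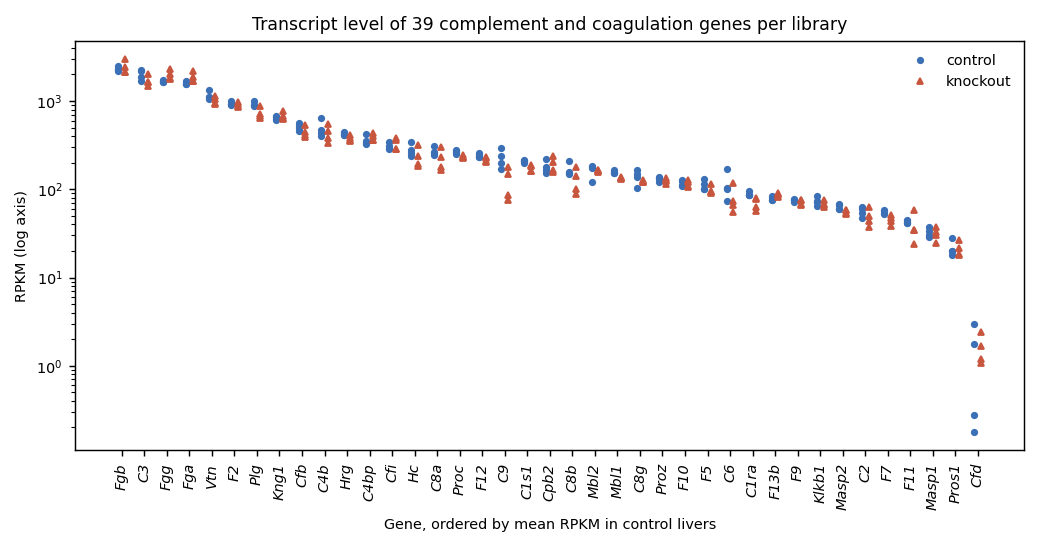
RPKM per library (log axis) for the 39 genes, ordered by their mean in control livers, with circles for the 4 control and triangles for the 4 knockout libraries. Fibrinogen genes and C3 are at the left, led by Fgb at 2306 RPKM, and Cfd is at the right at 1.3 RPKM.

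All 8 genes that start the classical and lectin arms had a log2 fold change below 0, from −0.35 to −0.02, with a median of −0.20. C1ra and C1s1 encode the proteases of the C1 complex and lie tail to tail on chromosome 6, 6901 bases apart. C1ra (124512405 to 124523443, mm10) had 239, 236, 236 and 264 CPM in control libraries 1 to 4 and 214, 158, 172 and 218 CPM in knockout libraries 1 to 4. All knockout libraries were below all controls (log2 fold change −0.35, SE 0.11, adjusted p = 0.0958). C1s1 had 624, 639, 594 and 629 CPM in control and 554, 476, 480.4 and 559 CPM in knockout libraries, again without overlap (−0.26, SE 0.08, adjusted p = 0.0836, or 0.0773 with the block). The close copies C1rb and C1s2 had 3.02 and 3.18 CPM in control livers. Whether reads that match both copies were counted is not stated, so C1ra and C1s1 may be undercounted.

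Mbl1 encodes a mannose-binding lectin, and its adjusted p was the lowest of the 39. It had 144, 139, 139.7 and 152 CPM in control and 125, 124, 119.6 and 126 CPM in knockout libraries. The groups did not overlap, and the difference was small but even (−0.22, SE 0.06, adjusted p = 0.0643). Mbl2, the other mannose-binding lectin gene, had 195 ± 33.4 and 192 ± 4.41 CPM (−0.02, 95% interval −0.28 to 0.24). Masp2, the lectin-associated protease that cleaves C4 and C2, had 213, 194, 192 and 218 CPM in control and 189, 173, 169 and 185 CPM in knockout libraries. Here too the highest knockout library was below the lowest control (−0.19, SE 0.07, adjusted p = 0.153). Masp1 had 174 ± 20.6 and 167 ± 29 CPM. Masp1 overlaps Rtp4 on the opposite strand, an interferon response gene that rose from 10 ± 0.964 to 18.6 ± 2.59 CPM, and with no strand setting stated, reads of the overlap may belong to either gene. The same limit holds for Masp2, which overlaps Tardbp on the opposite strand (101 ± 6.44 CPM in control and 96 ± 2.27 CPM in knockout livers).

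C4b, the substrate of these proteases, was the most abundant gene of the arm per length. It had 2546, 2359, 2176 and 3422 CPM in control and 2447, 1810.2, 2045 and 2932 CPM in knockout libraries. The groups overlapped, with library 4 highest in both (−0.19, SE 0.18, adjusted p = 0.592), and reads may be shared with its near-identical neighbour C4a. C2 had 148 ± 18.9 and 128 ± 29.5 CPM. C2 and Cfb, which encode the paired proteases of the classical and alternative convertases, lie 85 bases apart on chromosome 17 and had like values, −0.21 and −0.19.

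C3 is where the arms meet, and Cfb and Cfd drive its alternative pathway. C3 had 8653, 9562, 11521 and 11184 CPM in control and 8460.3, 7602, 8346 and 10517 CPM in knockout libraries. The groups overlapped (−0.23, SE 0.13, adjusted p = 0.348). Cfb had 1400.3 ± 116 and 1224 ± 165 CPM (−0.19, adjusted p = 0.336). Cfd, adipsin, is a gene of fat cells in the main and had only 0.165 to 2.77 CPM in control and 0.998 to 2.22 CPM in knockout libraries, with an interval from −1.57 to 2.15. Of 8 fat cell markers 4 were tested and 2 rose, the lipid carrier Fabp4 (adjusted p = 0.012) and the lipid droplet gene Cidec (adjusted p = 0.049). With the block the 2 were Fabp4 and Adrb3, and Cidec did not pass. Of the 4 tested, 1 had a log2 fold change below 0. The summed fat cell markers ran from 2691 to 3992 CPM in control and from 2116 to 3738 CPM in knockout libraries. Lep was at 0 in all 8 libraries and Adipoq at or under 0.0434 CPM, so neither adds much to that sum. Which cells the sum comes from was not tested. The complement inhibitors Cfi and C4bp had log2 fold changes of 0.09 and 0.12, with neither past the threshold, and Cfi had −0.02 under total counts alone. C4bp, which with factor I breaks down C4b, had 654, 618, 623 and 793 CPM in control and 747, 688, 679 and 808 CPM in knockout libraries. It was higher in 4 of 4 pairs but the groups overlapped (0.12, SE 0.10, adjusted p = 0.53). Cfi, factor I itself, had 640.4 ± 57 and 683 ± 104 CPM.

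The terminal pathway had the lowest median of the 8 roles, −0.34. All 6 members were below 0. Their summed share of all counts, again unscaled, was between 0.346% and 0.487% of a control library and between 0.219% and 0.393% of a knockout library. C9, whose protein polymerises into the wall of the pore, lies on chromosome 15 (6445327 to 6498751). It had 540.0, 446, 384 and 666 CPM in control and 335, 171, 194 and 402 CPM in knockout libraries. The knockout mean was 54.1% of the control mean, but knockout library 4 was above control library 3. Without pairing, edgeR did not call C9 (−0.88, SE 0.30, adjusted p = 0.129), and neither did limma voom with quality weights. DESeq2, also without pairing, called it lower (−0.87, adjusted p = 0.0148). The 4 paired differences were −0.69, −1.38, −0.98 and −0.73 on the log2 scale.

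C6, also on chromosome 15 (4727175 to 4814967), had 291, 287, 211 and 479.6 CPM in control and 209.7, 187, 155 and 333 CPM in knockout libraries. The spread within each group was wide and shared between groups, with library 4 highest and library 3 lowest in both. Its paired differences of −0.47, −0.62, −0.44 and −0.53 were close together. Without pairing C6 had −0.52 (SE 0.30, adjusted p = 0.357). Hc, the gene of C5, had 1386, 1516, 1291 and 1862 CPM in control and 1277, 1002, 1044 and 1715 CPM in knockout libraries. It overlapped between groups (−0.27, SE 0.18, adjusted p = 0.434, or 0.126 with the block).

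The chains of C8 join the forming pore before C9. C8a and C8b are neighbours on chromosome 4, 11130 bases apart. C8a had 969.7 ± 103 and 794 ± 224 CPM and C8b 372 ± 62.5 and 285 ± 91.4 CPM (−0.29 and −0.38, adjusted p = 0.39 and 0.354). In both, knockout libraries 1, 2 and 3 were below all controls, while knockout library 4 was not. C8g, a lipocalin gene on chromosome 2 whose product joins C8a, had 202, 172, 129 and 186 CPM in control and 158, 151, 148 and 151 CPM in knockout libraries. Control library 3 was the lowest of the 8 (−0.18, SE 0.12, adjusted p = 0.426), and without it C8g passed (−0.29, adjusted p = 0.0426), in a fit that called 2.57% of all genes lower. C8g overlaps Fbxw5 on the opposite strand (41.1 ± 1.65 CPM in control and 41.2 ± 1.71 CPM in knockout livers), so reads of the overlap may belong to either gene.

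The 7 vitamin K dependent genes, whose proteins need gamma-carboxylation to bind membranes, were all below 0 with a median of −0.07. F2, prothrombin, had 1885, 1836, 1887 and 2032 CPM in control and 1958, 1727, 1769 and 1872 CPM in knockout libraries. The groups overlapped and the interval was narrow (−0.06, 95% interval −0.23 to 0.11). F7, the trigger of coagulation together with tissue factor, lies on chromosome 8 (13026034 to 13035809). It had 104, 97.3, 101 and 108 CPM in control and 88.2, 70.6, 80.9 and 95.5 CPM in knockout libraries. These did not overlap (−0.29, SE 0.09, adjusted p = 0.105). F10, 1498 bases downstream of F7, had 317 ± 26.6 and 311 ± 27.5 CPM (−0.03), and the next gene, Proz, 492 ± 27 and 470.4 ± 29.6 CPM (−0.07), both closer to 0 than F7.

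Proc, the anticoagulant protein C, had 478, 447, 431 and 459 CPM in control and 416, 399, 398 and 384 CPM in knockout libraries. All knockout libraries were lower than all controls (−0.18, SE 0.06, adjusted p = 0.133; 0.147 in the blocked fit), and library 4 was the lowest knockout library here. Its cofactor Pros1 had 71 ± 14.8 and 69.7 ± 12.7 CPM (−0.03), and F9, the gene deficient in haemophilia B, 205 ± 6.04 and 195 ± 12.5 CPM (−0.07). Genes of the vitamin K cycle did not pass either, and the carboxylase gene Ggcx had 106 ± 6.02 and 106 ± 5.02 CPM.

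The contact system starts coagulation on charged surfaces and releases bradykinin. Kng1, its kininogen, had 1889, 1745, 1801 and 1942 CPM in control and 1977, 1826, 1852 and 2246 CPM in knockout libraries. It was higher in 4 of 4 pairs with overlap (0.10, SE 0.09, adjusted p = 0.554), and reads may be shared with Kng2 (223 ± 12.7 and 225 ± 30.2 CPM). F12 had 478, 452, 452 and 506 CPM in control and 462, 403, 412 and 441 CPM in knockout libraries. It was lower in 4 of 4 pairs with a small overlap (−0.14, SE 0.07, adjusted p = 0.321). F11 and Klkb1, neighbours on chromosome 8, had 95.7 ± 3.29 and 85.3 ± 33 CPM, and 384 ± 38.9 and 356 ± 25 CPM. F11 ran from 54.1 to 132 CPM in the knockout libraries, against 92.1 to 99.5 CPM in control.

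The fibrinogen chain genes had mean levels above those of the controls, though none passed. They lie side by side on chromosome 3 in the order Fgg, Fga, Fgb. Fgg (83007724 to 83015049) had 3503, 3536, 3507 and 3693 CPM in control and 4316, 3808, 3749 and 4858 CPM in knockout libraries. It was the 1 member of 39 (2.56%) whose knockout libraries were all above the controls, against 7.17% of all tested genes (0.23, SE 0.10, adjusted p = 0.203; 0.162 in the blocked fit). Fga had 5369.9 ± 225 and 6209 ± 767 CPM and was higher in 4 of 4 pairs (0.21, SE 0.10, adjusted p = 0.264). Fgb had 3838, 3958, 3679.7 and 4251 CPM in control and 4108, 3666, 3625 and 5049 CPM in knockout libraries. Its groups overlapped (0.06, SE 0.12, adjusted p = 0.789), and the value was −0.05 under scaling by total counts alone. Scaling by total counts moved the median of all genes from −0.01 to −0.12, and the median of the members from −0.18 to −0.29.

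The opposite direction, all knockout libraries below all controls, was seen for 6 members (15.4%), against 7.93% of all tested genes. They were C1ra, C1s1, Masp2, Mbl1, F7 and Proc, and none of them passed the adjusted threshold in edgeR.

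Ratios within a library do not depend on how libraries are scaled. The ratio of Fgg to Plg in RPKM, chosen after the values were seen and given without a test, was 1.84, 1.86, 1.91 and 1.76 in control libraries. In knockout libraries it was 2.87, 2.80, 2.63 and 2.64, with no overlap. Fgg over Fgb was between 0.701 and 0.769 in the controls and between 0.777 and 0.848 in the knockouts, while Fga over Fgg was 0.931 to 0.97 and 0.912 to 0.954. The alpha to gamma ratio thus overlapped between the groups, while Fgb was lower relative to Fgg in each of the 4 knockout libraries than in any control.

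**Figure D5:**
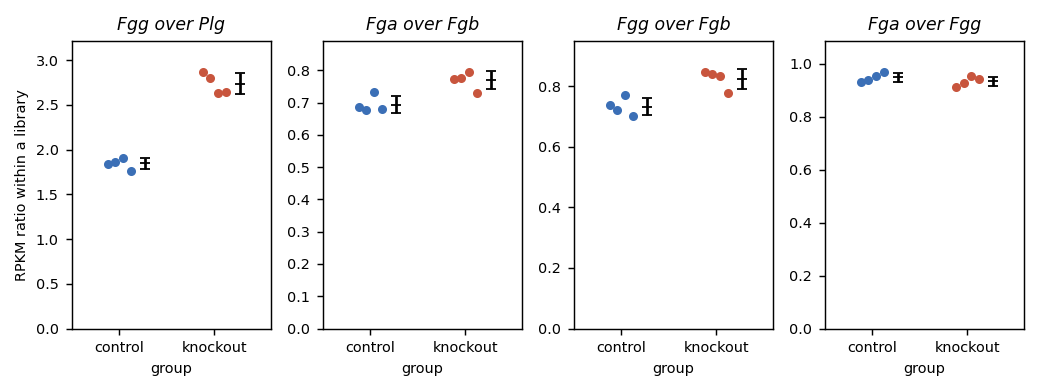
Ratio of RPKM values (y axis, from 0) within each library for 4 gene pairs, with points for the 4 libraries of a group and bars for mean ± SD. For Fgg over Plg the knockout points, 2.63 to 2.87, lie above the control points, 1.76 to 1.91.

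Promoters are shown for the fibrinogen genes, whose log2 fold changes were 0.23, 0.21 and 0.06 for Fgg, Fga and Fgb, and for C6, at −0.52, of which none passed without the block. RefSeq start sites (GRCm38.p6, the assembly of mm10) gave a window of 250 bases before to 50 after the start for 31 of the 39 members. CTGGGAA, known as the core of the interleukin-6 response element of fibrinogen genes, was in 7 of 31 windows (22.6%) against 12.7% of 27025 genes, counting both strands. The STAT palindrome TTCNNNGAA was in 8 (25.8% against 9.55%), the C/EBP palindrome TTGCNNCAA in 2 (6.45% against 2.38%), the HNF1 pattern (GTTAAT and ATT with 1 base of any kind between) in 3 (9.68% against 0.47%) and the HNF4 core CAAAGTCCA in 0 (0.555% of all). CTGGGAA and TTCNNNGAA overlap in F9, Masp2 and Vtn. The 250 bases before each start are printed 5′ to 3′ on the gene's strand, with the letters of any match in capitals.
Fgg, chr3:83007474-83007723, plus strand: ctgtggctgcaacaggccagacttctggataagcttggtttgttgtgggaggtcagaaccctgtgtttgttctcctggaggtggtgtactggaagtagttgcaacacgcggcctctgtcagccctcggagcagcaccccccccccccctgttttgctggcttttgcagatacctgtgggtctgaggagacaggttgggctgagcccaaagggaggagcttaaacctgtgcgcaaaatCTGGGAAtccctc
Fga, chr3:83025903-83026152, plus strand: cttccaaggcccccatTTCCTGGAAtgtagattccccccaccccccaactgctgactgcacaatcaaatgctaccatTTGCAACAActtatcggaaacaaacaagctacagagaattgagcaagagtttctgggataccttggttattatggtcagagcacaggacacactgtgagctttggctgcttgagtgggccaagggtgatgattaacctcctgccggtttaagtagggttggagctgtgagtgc
Fgb, chr3:83049864-83050113, minus strand: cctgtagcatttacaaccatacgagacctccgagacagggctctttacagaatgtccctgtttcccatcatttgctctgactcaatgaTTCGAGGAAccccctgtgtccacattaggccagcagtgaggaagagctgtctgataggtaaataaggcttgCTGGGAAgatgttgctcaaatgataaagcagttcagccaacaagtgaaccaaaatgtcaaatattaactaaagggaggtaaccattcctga
C6, chr15:4726960-4727209, plus strand: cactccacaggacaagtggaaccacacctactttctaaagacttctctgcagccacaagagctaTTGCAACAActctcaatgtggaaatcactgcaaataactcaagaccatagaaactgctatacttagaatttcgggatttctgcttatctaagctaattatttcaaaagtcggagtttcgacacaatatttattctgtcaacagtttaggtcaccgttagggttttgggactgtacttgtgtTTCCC
CTGGGAA begins 13 bases before the start in Fgg and 91 bases before it in Fgb, and in C6 its reverse complement begins 5 bases before it and runs over the start. The C/EBP pattern begins 173 bases upstream in Fga and 186 in C6, with the same letters, TTGCAACAA, in both. TTCNNNGAA begins 234 bases upstream in Fga and 162 in Fgb. All these distances are from the RefSeq starts. GENCODE M21 starts C6 at 4727175 and Fga at 83026076, both inside the bases printed above. The distances in these genes therefore depend on the annotation. Log2 fold changes of the 7 genes with CTGGGAA were 0.23 (Fgg), 0.06 (Fgb), −0.07 (F9), −0.18 (Vtn), −0.19 (Masp2), −0.35 (C1ra) and −0.52 (C6). Of the other genes lower with the block, C9 and F7 hold no match to any of these patterns. C1ra holds CTGGGAA and TTCNNNGAA, and Plg has no window. Whether any motif bears on these values was not tested.

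Neither of the other genes of fibrin formation passed. F5, the cofactor of factor X, had 829.9 ± 99.1 and 735 ± 82.3 CPM (−0.18, adjusted p = 0.386). F13b, the carrier subunit of the enzyme that cross-links fibrin, had 188 ± 10.5 and 205 ± 9.85 CPM and was higher in 4 of 4 pairs (0.13, SE 0.07, adjusted p = 0.308).

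Plg, plasminogen (chromosome 17, 12378608 to 12419385), had 2477, 2473, 2398 and 2729.9 CPM in control and 1959.7, 1773, 1859 and 2398 CPM in knockout libraries. Only knockout library 4 reached the lowest control (−0.34, SE 0.11, adjusted p = 0.1), and without that library Plg passed (−0.43, adjusted p = 0.024), in a fit that called 1.09% of all genes lower. Plg overlaps Slc22a3 on the opposite strand, which had 6.12 ± 1.83 CPM in control livers, far below Plg. Hrg, a plasma glycoprotein that binds plasminogen and heparin, had 765, 718, 715 and 756 CPM in control and 608, 627, 654 and 716 CPM in knockout libraries. It was lower in 4 of 4 pairs with a slight overlap (−0.18, SE 0.07, adjusted p = 0.192). Vtn, vitronectin, an adhesive protein that also blocks the terminal pore, had 1953, 1937, 1825 and 2342 CPM in control and 1859.8, 1629, 1652 and 1989 CPM in knockout libraries. The groups overlapped (−0.18, SE 0.10, adjusted p = 0.363). Cpb2, which slows fibrinolysis by trimming fibrin, had 265 ± 45.5 and 281 ± 53.9 CPM (0.09, adjusted p = 0.781).

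Other tests drew the line elsewhere, in the same direction. DESeq2 called 6 members lower (Plg, C9, Proc, C1ra, Mbl1 and C1s1) against 4.87% of all genes (6.82% higher), and limma voom with quality weights 4 (Plg, F7, Mbl1 and C1s1) against 4.06% (5.59% higher). Total counts alone called 9 lower (Hrg, Plg, F7, Proc, C1ra, Mbl1, Masp2, C1s1 and F12) against 9% of all genes (2.64% higher). None called a member higher.

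Among 54 other genes of these pathways 53 were tested, and 2 rose and 1 fell (3 and 1 with the block), with a median of 0.09. F2r, which encodes a thrombin receptor, rose, with 63.6 ± 5.79 and 100.1 ± 21.3 CPM (0.66, SE 0.14, adjusted p = 0.0289). Lman1, a cargo receptor that carries factors V and VIII out of the endoplasmic reticulum, rose too, with 289 ± 36.4 and 382 ± 13.8 CPM (0.40, SE 0.09, adjusted p = 0.0385). F2r lost its call in 5 of 8 fits that left out 1 library (adjusted p up to 0.0889 without control library 1), and Lman1 in 6 of 8 (up to 0.109 without control library 1) and under total counts alone (0.0697). The C1q genes, which macrophages make, had 13.5 to 15.1 CPM on average in control livers and 15.8 to 17.7 CPM in knockout livers and did not pass, and the summed Kupffer cell and macrophage markers ran from 182 to 252 CPM in control and 149 to 403 CPM in knockout libraries.

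Serpins and shared regulators were read beside the members. Of 9 serpins that inhibit these cascades 1 rose, Serpina5 (1.44, adjusted p = 0.0417), at a low level of 0.187 ± 0.0766 and 0.509 ± 0.119 CPM, and with the block Serpinf2, the plasmin inhibitor, was lower (−0.37, adjusted p = 0.0297). Of 18 liver transcription factor genes 1 rose, Atf6 (0.32, adjusted p = 0.0433), which did not pass under total counts alone or without the count filter. With the block 1 was higher, again Atf6, and 2 were lower. These were Prox1 (−0.60, adjusted p = 0.0273) and Nr2f2 (−0.29, adjusted p = 0.046). Of 22 acute phase genes none passed by edgeR (0 higher and 2 lower at unadjusted p under 0.05), while with the block 2 were higher and 3 lower. Of 18 other secreted hepatocyte proteins 1 rose, the retinol carrier Rbp4 (0.55, adjusted p = 0.0156), and 7 were below 0, with a median of 0.11.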

How the data were processed

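RNA was measured in 8 mouse liver libraries, 4 control and 4 knockout, grouped by the sample labels. Per the labels' protocols RNA came from the illustra QuickPrep mRNA kit and prepared with NEBNext Ultra II chemistry. The authors deposited raw counts per gene symbol and a gene length in bases, with genome build mm10 per the submitters' processing notes. For the aligner, counter, annotation and strand setting, nothing is stated in the sources used here. All 8 library columns of the table were used. Among low counts, between 67.4% and 70.8% were even in each library, and the reason was not tested. A fit with counts divided by 2 was run as an alternative.

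Genes were filtered with filterByExpr (14861 of 25239 kept), scaled with TMM and tested with edgeR 4.0.16 (quasi-likelihood, robust), with Benjamini-Hochberg adjustment over all tested genes and a threshold of 0.05. CPM and RPKM use TMM-scaled totals. Standard errors are the absolute log2 fold change over the square root of F. limma 3.58.1 and DESeq2 1.42.0 were alternatives, and the edgeR script was tested on simulated data. Same-numbered libraries correlated at 0.17, 0.39, 0.31 and 0.40 in their deviations from group means over genes, each above 0.1. The numbers were therefore taken to pair the samples, from the data and not the labels. Control library 4 with knockout library 1 (0.126) and control library 2 with knockout library 3 (0.104) were also above 0.1. Each library correlated most with the one of its own number. Fits with the block and counts over pairs rest on this choice.

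The members and gene lists were chosen with earlier results of these data known. Values per library are given for members whose groups do not overlap, for the highest member per length of each role and for members that passed in an alternative. Gene positions and 3′ UTRs (at least 20 bases, basic coding transcripts) are from GENCODE M21. Floors of 3 counts cover counting error only. Of the other pathway genes, 1 that passed the threshold is counted but not reported by name here.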

Additional observations from a re-analysis of the deposited data

Results flagged for a closer look

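In 4 of 80 groups of 4 libraries, 1 library lay far from the other 3 by Dixon's criterion (gap over range above 0.829), and chance flags about 1 group in 20. C1ra was 264 CPM in control library 4, with the next at 239 CPM. C8b was 464 CPM in control library 4, with the next at 352 CPM. F5 was 857 CPM in knockout library 4, with the next at 708 CPM. Mbl2 was 145 CPM in control library 2, with the next at 208 CPM. The 3 high values are all in libraries numbered 4.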

How the results depend on the processing

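No member was higher at adjusted p under 0.05 in any fit. The count of members lower was 0 without the count filter, with mean CPM of at least 1 and with counts divided by 2, but 9 under total counts alone, 6 with DESeq2, 5 with the replicate block, 4 with limma voom and 1 with both libraries numbered 4 left out. Leaving out 1 library gave 0 to 1. For other pathway genes, the count higher was 1 under total counts alone, 7 with DESeq2, 3 with the block and 1 with both libraries numbered 4 left out, and 0 to 1 without 1 library. The count lower was 4, 2 and 3 under total counts alone, DESeq2 and limma voom. Over all genes 521 were higher and 280 lower, against 392 and 1338 under total counts alone, 1014 and 724 with DESeq2, 830 and 604 with limma voom, 653 and 375 with the block, and 345 and 98 with both libraries numbered 4 left out. Leaving out 1 library gave 169 to 583 higher and 42 to 384 lower (0.281% to 2.57% of genes lower). The share of lower calls moved with the scaling, and the other causes were not tested. The Zfp36l1 difference was −1.86 to −2.08 without 1 library and passed in all fits. Some members near 0 changed sign. Under total counts alone Cfi had −0.021, Kng1 −0.014, Fgb −0.048 and Cpb2 −0.023, and Cpb2 had −0.00040 with limma voom. With both libraries numbered 4 left out Pros1 had 0.0027 and Fgb −0.0093. Leaving out 1 library gave −0.16 to 0.037 for Masp1, −0.13 to 0.038 for Mbl2, −0.076 to 1.13 for Cfd, −0.079 to 0.014 for F10, −0.15 to 0.13 for Pros1, −0.45 to 0.00059 for F11, −0.047 to 0.12 for Fgb and −0.029 to 0.21 for Cpb2. Depth limits Cfd only, the 1 member under 10 CPM in all libraries.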
